A study of Homo sapiens with 4 samples.

Results

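Cyclins, cyclin-dependent kinases (CDKs) and CDK inhibitors were followed in HT-29 cells, a human colorectal cancer line, in which the RNA-binding protein IMP1 (gene symbol IGF2BP1) had been deleted and was then either put back or not. The set was taken by symbol: every cyclin of the CCN series, every numbered CDK, and the inhibitors CDKN1B, CDKN1C, CDKN2A, CDKN2B, CDKN2C, CDKN2D and CDKN3. It held 53 of the 20322 genes in the deposited table, each represented by 1 transcript. The rule reads symbols and no measured value.

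Total RNA of 4 libraries was sequenced as short random fragments. All 4 came from cells with CRISPR/Cas9 directed at the IMP1 gene, the cells were kept in 2 ug/mL puromycin, and the labels trace them to a liver metastasis in a mouse. The IMP1-OE group (2 libraries) carried a PiggyBac vector with FLAG-tagged IMP1 and a short UTR (PB*-FLAG-IMP1-short UTR), and the null group (2 libraries) carried the empty vector (PB*-empty). The series' design text counts 2 cell lines per genotype, and no source used here names the promoter of the vector or the clonal origin of the lines. The labels number the libraries of a group as replicates and do not say whether these are separate lines or cultures. The p-values below therefore measure no more than the spread among these samples, and that spread may be technical. The question addressed is how RNA levels differ when IMP1 is put back into cells in which it had been deleted.

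A cyclin binds a CDK and switches the kinase on, and different cyclins are made at different stages of the cell cycle. D-type cyclins with CDK4 or CDK6 start the exit from G1 by phosphorylating the retinoblastoma protein, E- and A-type cyclins with CDK2 drive DNA replication, and B-type cyclins with CDK1 drive mitosis. INK4 proteins (the CDKN2 genes) block CDK4 and CDK6, CIP/KIP proteins (the CDKN1 genes) block several cyclin-CDK complexes, and other cyclins and CDKs regulate RNA polymerase II and splicing. IMP1 binds mRNAs, many of them from growth-related genes, and can change their stability or translation. In colorectal cancer the cyclin D1 gene is a known target of the Wnt pathway.

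Library totals ran from 9343429 to 10594813 counts. The gene ARSI alone took 8.01% and 12.4% of the counts in IMP1-OE and 17.8% and 17.3% in null. IGF2BP1 had 71 and 112 counts in IMP1-OE and 37 and 16 in null, so its order followed the labels, although edited and intact transcripts are counted alike, at an edgeR log2 fold change of 1.69 (adjusted p 0.453). All 11 colorectal epithelium markers examined were detected, with a summed level of 26552 to 27315 CPM (counts scaled to a common library total) in IMP1-OE and 21037 to 28752 CPM in null. The hepatocyte markers ALB and APOA1 were at 0 in every library, and the 5 hepatocyte markers summed to 686 to 725 CPM in IMP1-OE cells, against 225 to 438 CPM in null cells, mostly from SERPINA1. The T cell marker CD3E was at 0 in every library, and the 4 leukocyte markers, mostly LYZ, summed to 1748 to 1896 CPM in IMP1-OE cells, against 1394 to 2815 CPM in null cells. The 5 fibroblast markers summed to 1.90 to 3.14 CPM in IMP1-OE cells, against 1.64 to 5.87 CPM in null cells, and the 3 endothelial markers to 3.14 to 4.09 CPM and 2.35 to 2.95 CPM. The part of these marker differences in the results below was not tested.

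Among the cell-cycle members, the mitotic genes CCNB1, CCNB2, CCNF and CDK1 had higher levels in both IMP1-OE libraries than in either null library. The inhibitor genes CDKN2A, CDKN2B, CDKN1B and CDKN1C, with CCND1, had lower levels in both IMP1-OE libraries. Such an absence of overlap was found for 44.7% of tested members, beside 43.2% of all genes tested. Outside the set, the proliferation gene MKI67 was lower in both IMP1-OE libraries, TOP2A was higher in both, and PCNA overlapped. CDKN3, a CDK phosphatase gene, and CDK8, a Mediator kinase gene, had the highest fold changes of the tested members, at 2.20-fold and 2.07-fold higher in IMP1-OE. None of these differences passed the threshold of edgeR's quasi-likelihood test, an adjusted p of at most 0.05 over all genes tested. CDKN2A, 1.79-fold lower, and CDK3 passed it in DESeq2. The authors' deposited table holds the same adjusted p-values for both, so it is not a separate test. The call of CDK3 did not hold when the counts of TEN1-CDK3, a target that runs into CDK3, were added (DESeq2 adjusted p 0.972).

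Of the 53 members, 47 passed the filter on low counts and were tested among 12113 genes, and 6 did not pass it (CCND2, CCNA1, CCNB3, CCNP, CDK14 and CDK15). The edgeR test called 0 of the 47 members, beside 0% of all genes tested, and the smallest adjusted p of a member was 0.408. At an unadjusted p under 0.05 it gave 8 members (17.0%), beside 10.2% of all genes tested. Of these, 4 were higher in IMP1-OE (CDKN3, CDK8, CCNB1 and CDK1), beside 4.34% of all genes in that direction, and 4 were lower (CDKN2A, CDK3, CDKN1C and CCND1), beside 5.84%. DESeq2 called 2 members, CDKN2A and CDK3, beside 1.28% of the 12836 genes to which it gave an adjusted p. The authors' deposited table calls the same 2 members, also beside 1.28%. It holds the same adjusted p-values for them, so it is not a separate test.

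Members lay on both sides of 0. A log2 fold change above 0 was found for 19 tested members, beside 48.1% of all genes tested, and one below 0 for 28. The median log2 fold change was -0.08 over the tested members and -0.02 over all genes tested. The levels of the 2 groups did not overlap for 21 members (44.7%), beside 43.2% of all genes, with 11 members higher in IMP1-OE (beside 21.3% of genes) and 10 lower (beside 21.9%).

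The null libraries were farther apart than the IMP1-OE libraries. Over the tested members the median absolute log2 difference between replicates was 0.20 in IMP1-OE and 0.43 in null, and it was wider in null for 36 of the 47. Over all genes tested the medians were 0.23 in IMP1-OE and 0.38 in null, and the difference was wider in null for 7819 of 12113. The number of members at an unadjusted p under 0.05 was 2 without IMP1-OE replicate 1, 4 without IMP1-OE replicate 2, 21 without null replicate 1 and 13 without null replicate 2. The number called by edgeR was 4 without null replicate 1 and 0 without any other library. The members called by DESeq2 also changed with the library left out, in fits chosen after seeing the data. No share of all genes is given for these DESeq2 fits, so they are not a result about the members. In each of these omissions a lone library is assumed to vary like the 2 libraries of the other group. Over all genes tested, the edgeR number at an unadjusted p under 0.05 also fell when an IMP1-OE library was omitted. It rose when a null library was omitted. Both edgeR numbers were largest with null replicate 1 omitted, among all genes as among members. The member counts alone are therefore no result about cyclins.

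**Figure D1:**
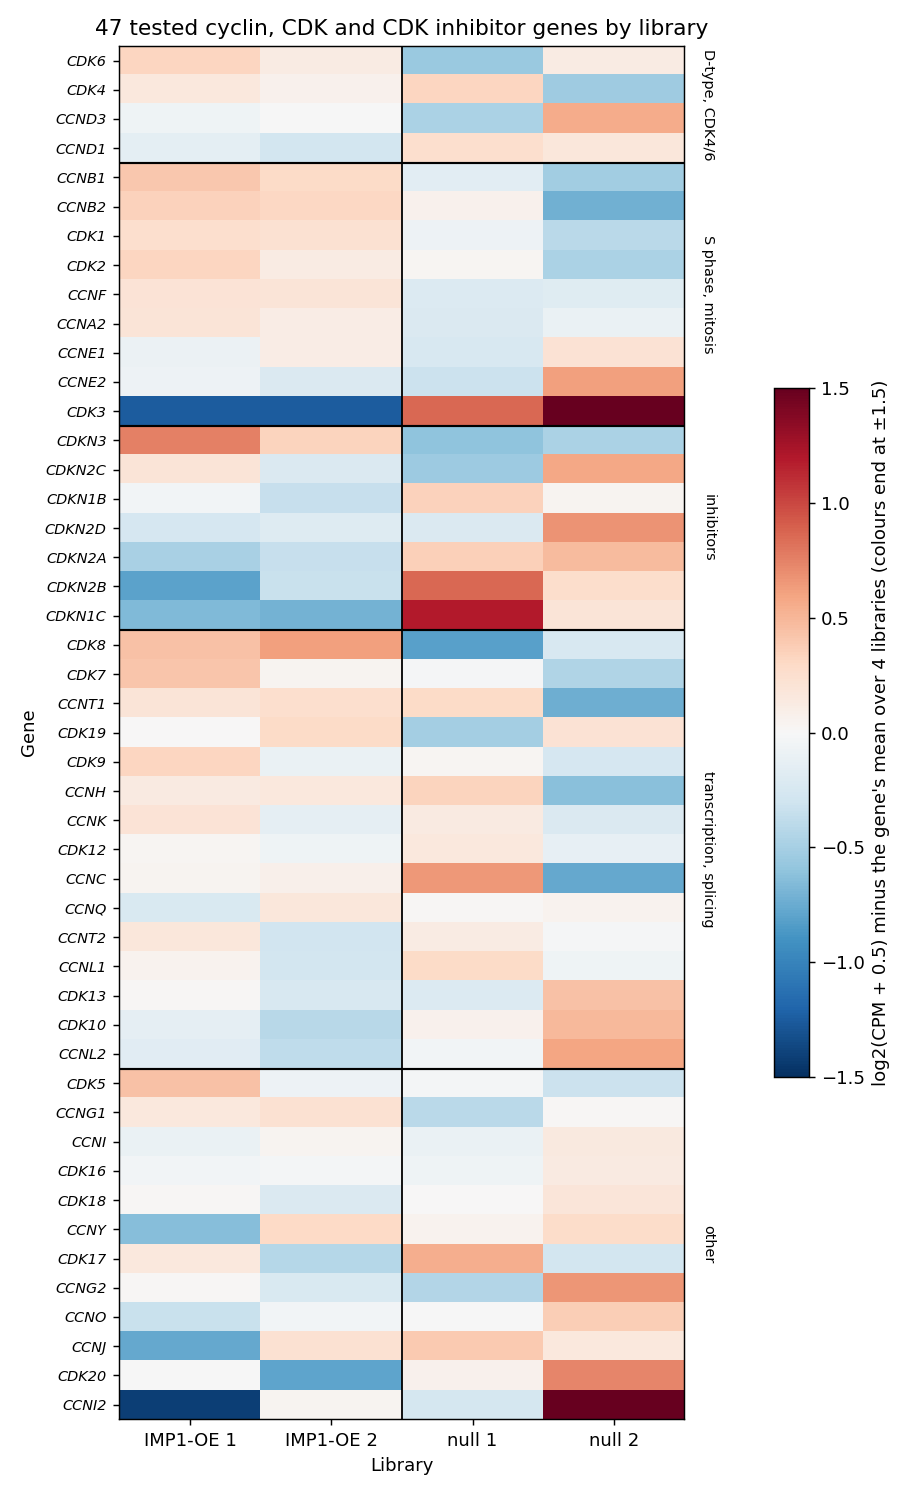
Heat map of the 47 tested members in role groups, with a column for each library (IMP1-OE 1 and 2, then null 1 and 2), where colour gives the log2 CPM (with 0.5 CPM added) minus the mean of the gene over the 4 libraries. The inhibitor rows are mostly lower in IMP1-OE and the mitotic rows mostly higher, and the columns of null 1 and null 2 differ from each other in many rows.

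The D-type cyclins and their kinases were the members closest to the retinoblastoma switch, and 1 of the 4 tested (CCND1) reached an unadjusted p under 0.05, beside 10.2% of all genes. CCND1, the gene of cyclin D1, had 1255 and 1141 counts in IMP1-OE and 1609 and 1357 in null. These were 119 and 108 CPM in IMP1-OE against 157 and 149 CPM in null, so both IMP1-OE libraries were below both null libraries. The means were 114 ± 7.76 CPM in IMP1-OE cells, against 153 ± 6.28 CPM in null cells (SD, n = 2 each, as for all means below), a 1.34-fold lower level. Its log2 fold change was -0.42 (SE 0.17) at an edgeR p of 0.0451 (adjusted p 0.484), and it stayed between -0.49 and -0.34 when any 1 library was left out. Its place under an unadjusted p of 0.05 was not stable: the unadjusted p was 0.0534 in DESeq2, 0.0531 in edgeR with upper-quartile scaling, 0.0550 without the low-count filter, 0.0634 with the replicate block and 0.106 in the likelihood ratio test. In edgeR it was 0.176 and 0.327 without IMP1-OE replicate 1 and 2. In the authors' deposited table CCND1 is at a log2 value of -0.21 (adjusted p 0.52).

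CCND3, the gene of cyclin D3, did not follow CCND1. It had 57.9 and 60.4 CPM in IMP1-OE against 43.3 and 89.2 CPM in null, so the null libraries lay on either side of the IMP1-OE libraries. CCND2, the gene of cyclin D2, was close to absent, with 0 and 3 counts in IMP1-OE and 0 and 1 in null, where a count of 0 allows up to 3 counts (0.285 to 0.328 CPM, counting error only). Per kilobase of target, CCND1 made up 49.7% and 46.2% of D-type cyclin counts in IMP1-OE and 63.5% and 44.3% in null, with CCND3 making up nearly all the rest. The share of CCND1 was therefore highest in null replicate 1 and lowest in null replicate 2.

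CDK6, which binds D-type cyclins, had the highest level per kilobase of any kinase of the set when averaged over the 4 libraries, at 137 CPM per kilobase in IMP1-OE and 103 in null. In null alone CDK4 was slightly above it, at 107 CPM per kilobase. It had 1709 and 1491 CPM in IMP1-OE against 928 and 1486 CPM in null. The lower IMP1-OE library and null replicate 2 were nearly equal, and null replicate 1 stood below the other 3 libraries. Its log2 fold change was 0.41 (SE 0.26), with an edgeR adjusted p of 0.624. Leaving out null replicate 1 gave 0.11, and leaving out null replicate 2 gave 0.79 (edgeR adjusted p 0.112). In that omission DESeq2 gave 0.78 and called the gene, at an adjusted p of 1.22e-05. CDK4, the other partner of the D-type cyclins, showed the reverse pattern in null, with 231 and 216 CPM in IMP1-OE against 258 and 143 CPM in null. Its log2 fold change of 0.16 (SE 0.29) became -0.21 without null replicate 2. As a result the ratio of CDK6 to CDK4 per kilobase was 1.18 and 1.10 in IMP1-OE, against 0.576 and 1.67 in null, which spanned the IMP1-OE values on both sides.

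Of the 9 tested cyclins and kinases of S phase and mitosis, 7 had a log2 fold change above 0 and the median was 0.40, beside -0.02 over all genes tested. The groups did not overlap for 7 of the 9, beside 43.2% of all genes, with 6 higher in IMP1-OE, beside 21.3%. At an unadjusted p under 0.05 there were 3, beside 10.2% of all genes, of which 2 were higher (CCNB1 and CDK1) and 1 was lower (CDK3), and edgeR called none. In RNA of a whole culture, a change in the share of cells in a cycle stage and a change in RNA per cell cannot be told apart.

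CCNB1, the gene of cyclin B1, which drives entry into mitosis with CDK1, had the highest level per kilobase of all members, at 249 CPM per kilobase in IMP1-OE and 156 in null. Its counts were 5525 and 5097 in IMP1-OE and 3641 and 2526 in null. This gave 526 and 485 CPM in IMP1-OE against 356 and 276 CPM in null, with no overlap. The mean was 505 ± 29.2 CPM in IMP1-OE cells, against 316 ± 56.4 CPM in null cells, 1.6-fold higher, with a log2 fold change of 0.68 (SE 0.19) and an edgeR p of 0.0128 (adjusted p 0.435). Leaving out null replicate 1 gave a log2 fold change of 0.87 (edgeR adjusted p 0.0262), and leaving out null replicate 2 gave 0.50 (adjusted p 0.222). DESeq2 gave CCNB1 an adjusted p of 0.12.

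CDK1, the kinase of mitotic entry, had 167 and 166 CPM in IMP1-OE against 133 and 107 CPM in null. The IMP1-OE libraries were almost equal and both were above null, 1.39-fold on average (166 ± 1.14 CPM in IMP1-OE cells, against 120.0 ± 18.8 CPM in null cells). Its log2 fold change was 0.47 (SE 0.19) at an edgeR p of 0.0446 (adjusted p 0.484). CCNB2, the gene of cyclin B2, had 180.0 and 174 CPM in IMP1-OE against 147 and 85.6 CPM in null, and its log2 fold change of 0.61 (SE 0.28, edgeR adjusted p 0.516) depended on the null libraries. It was 1.05 without null replicate 1, with an adjusted p of 0.0205, and 0.27 without null replicate 2.

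CCNF, the gene of cyclin F, a subunit of an SCF ubiquitin ligase, had the closest replicates of the members with counts in every library. It had 103 CPM in both IMP1-OE libraries against 77.4 and 78.7 CPM in null, 1.32-fold higher (103 ± 0.486 CPM in IMP1-OE cells, against 78.0 ± 0.930 CPM in null cells). Its log2 fold change was 0.40 (SE 0.17), with an edgeR p of 0.0527 (adjusted p 0.495), and it kept between 0.39 and 0.42 in the omission of any 1 library. CCNA2, the gene of cyclin A2, which acts in S phase and G2, had 95.0 and 89.7 CPM in IMP1-OE against 71.2 and 77.3 CPM in null, with an adjusted p of 0.577. CDK2, its kinase partner, had 83.3 and 72.8 CPM in IMP1-OE against 68.1 and 47.7 CPM in null, with an adjusted p of 0.573. Both had no overlap between groups and were 1.24-fold and 1.35-fold higher in IMP1-OE. The log2 fold change of CDK2, 0.43, became 0.20 without null replicate 2 and 0.71 without null replicate 1.

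The E-type cyclins, which act with CDK2 at the start of S phase, did not share this order. CCNE1 had 107 and 123 counts in IMP1-OE and 93 and 116 in null, with a log2 fold change of 0.01 (SE 0.34), and CCNE2 had 92 and 83 counts in IMP1-OE and 75 and 132 in null, with one of -0.39 (SE 0.43). The groups overlapped for both genes. Per kilobase, CCNB1 took 61.3% and 60.1% of the counts of E-, A- and B-type cyclins in IMP1-OE and 57.1% and 58.5% in null. The germline cyclin gene CCNA1 was at 0 in every library, and CCNB3, a meiotic cyclin gene, had 6 and 0 counts in IMP1-OE and 3 and 1 in null.

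**Figure D2:**
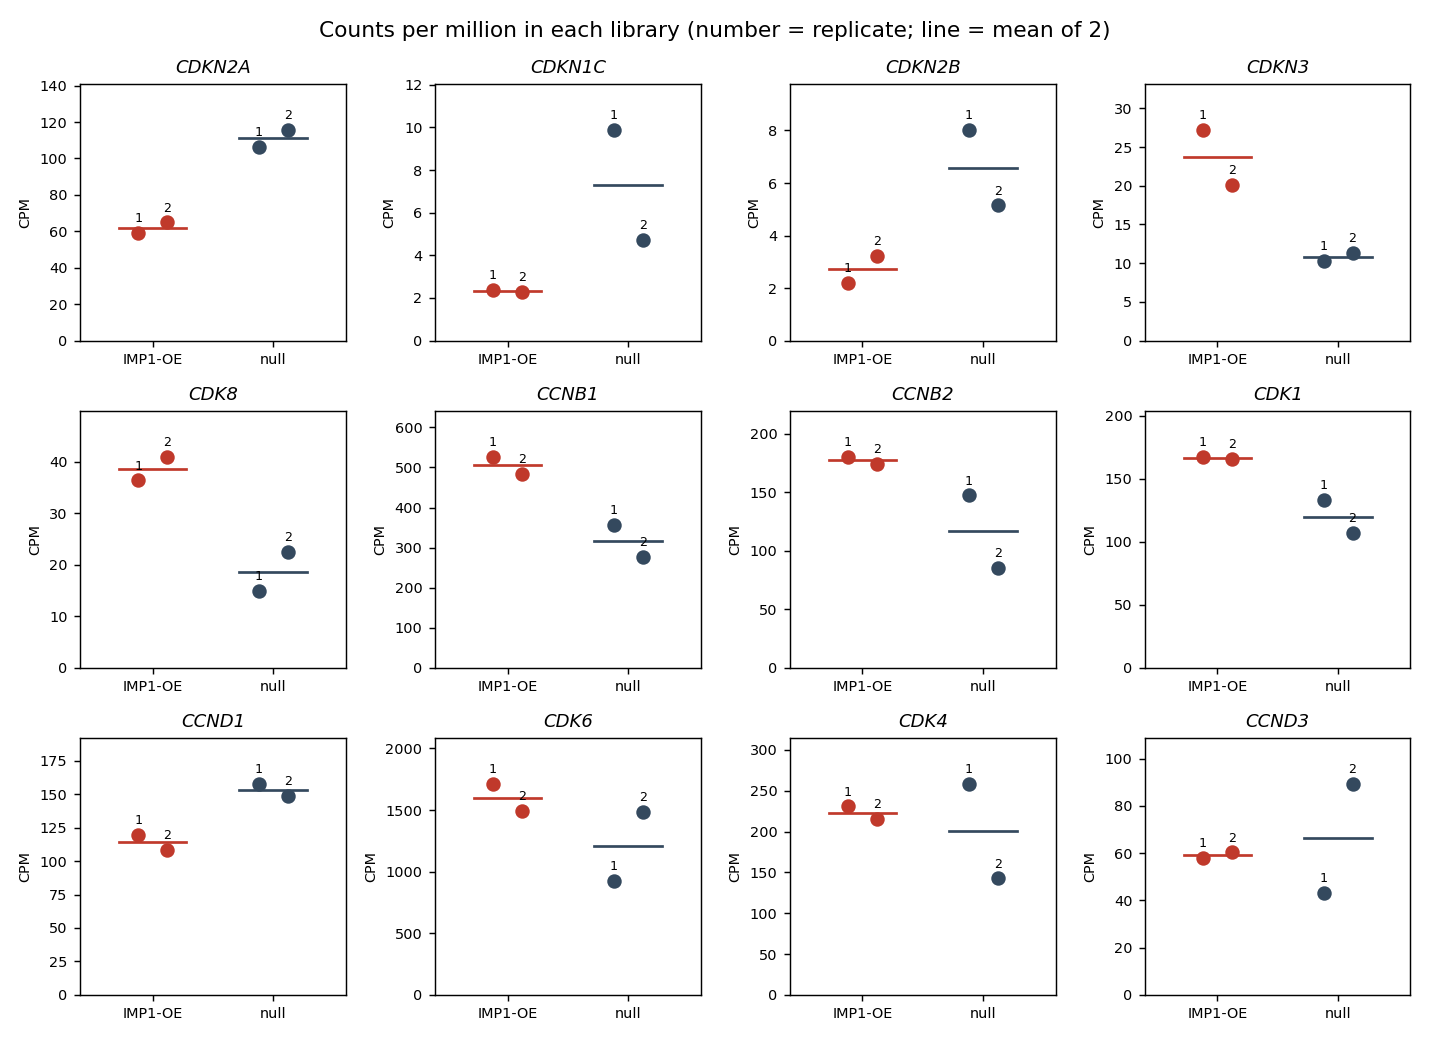
Level in CPM of selected members in each library, IMP1-OE left of null, with points for libraries and a bar at the group mean. CCNB1, CDK1, CDKN3 and CDK8 have both IMP1-OE points above both null points, and CDKN2A, CDKN1C, CDKN2B and CCND1 have them below.

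Promoters were set beside the mitotic members because many genes of G2 and mitosis are known to carry a cell cycle genes homology region (CHR, TTTGAA) downstream of CCAAT boxes, which repressor and activator complexes bind. RefSeq windows of 250 bases before to 50 bases after the start (GRCh38.p14) were found for 48 of the 53 members, and none was found for CCND1, CCND2, CCNE2, CDK2 and CDKN1C. The windows of 30 bases around the element are shown for the members with no overlap between groups that hold it, all on the plus strand, 5′ to 3′, with the element in capitals. In CDKN3 it was found as TTCAAA, its reverse complement. Positions are those of its first base, counted back from the base before the start as -1, and CDK1, with more than 1 RefSeq start, had further matches that are not shown.
CCNB2, chr15:59105105-59105134, first base at -29: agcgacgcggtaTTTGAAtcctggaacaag
CCNF, chr16:2429350-2429379, first base at -85: gggccgggtgcgTTTGAAaactggggtggg
CDK1, chr10:60778397-60778426, first base at -69: ctgattggctgcTTTGAAagtctacgggct
CDK1, chr10:60778453-60778482, first base at -13: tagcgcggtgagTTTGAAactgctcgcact
CDKN3, chr14:54396825-54396854, first base at -170: tcccgcgcgtctTTCAAAggtcttctagga

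TTTGAA was found on either strand in 8 of 48 members (16.7%), beside 18.2% of the 27305 genes with a window. CCAAT was found in 21 of 48 (43.8%), beside 39.7%. Both CCAAT and either TTTGAA or its variant TTCGAA were found in 6 of 48 (12.5%), beside 7.85%, and these were CCNB2, CCNF, CDK1, CDKN3, CDK19 and CCNC. CCNB1 and CCNA2, which were also higher in IMP1-OE, had CCAAT and neither variant, and CCNC, which holds both elements, had a log2 fold change of -0.06. The GC-rich palindrome GGCGCC was found in 15 of 48 (31.2%), beside 22.0%, and the E2F-type letters TTTCCCGC in 1 of 48, beside 1.98%. TTTGGCGC was in 0 of 48, beside 0.795%. All motifs were searched on both strands, TTTGGCGC and GGCGCC can overlap each other, and a missing match says only that these letters are not in the window.

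CDK3, a kinase that acts with cyclin C at the exit from quiescence, had 0 counts in both IMP1-OE libraries and 17 and 29 counts in null. The mean null level (2.42 ± 1.07 CPM) was 8.47-fold above a floor of 3 counts per library in IMP1-OE. This is not a lower bound, since the null libraries differed, at 1.66 and 3.17 CPM. Its unadjusted p was 0.00549 and its edgeR adjusted p 0.433, while DESeq2 gave an adjusted p of 0.0343. The authors' deposited table also gives 0.0343, beside a log2 value of -0.04. The readthrough target TEN1-CDK3, a transcript marked for nonsense-mediated decay that runs into CDK3, showed the opposite order, with 66 and 33 counts in IMP1-OE and 23 and 0 in null. Short fragments can match both targets. When the counts of both were added, a step chosen after seeing the data, the sums were 66 and 33 in IMP1-OE and 40 and 29 in null. The edgeR log2 fold change of the sum was 0.41 (adjusted p 0.845), and DESeq2 gave an adjusted p of 0.972, so the call of CDK3 did not hold for the summed counts.

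**Figure D3:**
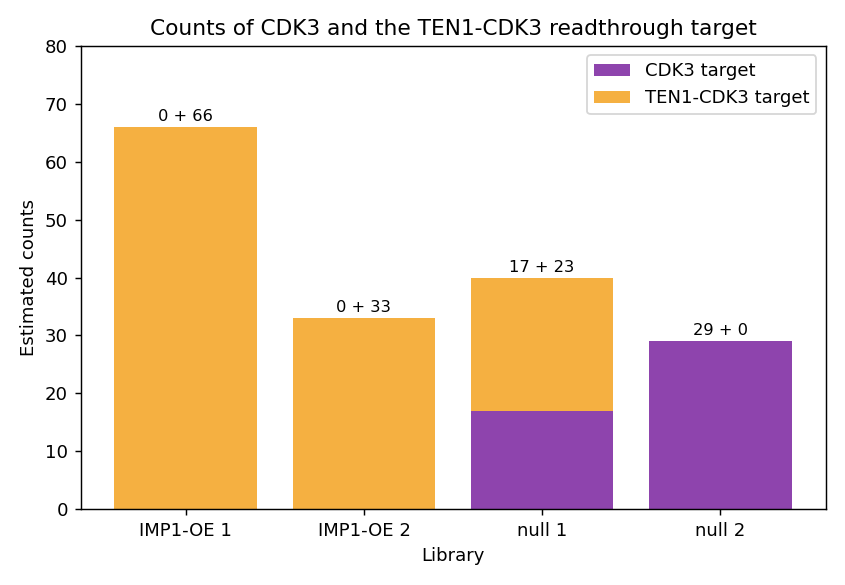
Estimated counts of the CDK3 target and the TEN1-CDK3 readthrough target in each library, stacked, with both counts above each bar. IMP1-OE libraries have 0 counts of CDK3 and 66 and 33 of the readthrough, null replicate 1 has 17 and 23, and null replicate 2 has 29 and 0.

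All 7 CDK inhibitors of the set, which leaves out CDKN1A, were tested. Of these, 6 had a log2 fold change below 0, and the median was -0.55, beside -0.02 over all genes tested. The groups did not overlap for 5 of the 7, beside 43.2% of all genes, with 4 lower in IMP1-OE, beside 21.9%, and 1 higher (CDKN3), beside 21.3%. At an unadjusted p under 0.05 there were 3, beside 10.2% of all genes, of which 2 were lower (CDKN2A and CDKN1C) and 1 was higher (CDKN3).

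CDKN2A encodes p16INK4a, the inhibitor of CDK4 and CDK6, and from another reading frame the p53 activator p14ARF, and the single target does not separate the products. It had 619 and 683 counts in IMP1-OE and 1087 and 1057 in null. These were 58.9 and 64.9 CPM in IMP1-OE against 106 and 116 CPM in null, a wide gap between groups with close replicates in each. The mean was 61.9 ± 4.25 CPM in IMP1-OE cells, against 111 ± 6.61 CPM in null cells, 1.79-fold lower, with a log2 fold change of -0.84 (SE 0.18) and an edgeR p of 0.00311 (adjusted p 0.408). DESeq2 called CDKN2A, with an adjusted p of 0.0305, and in the authors' deposited table it is at a log2 value of -0.70 with the same adjusted p. The edgeR log2 fold change was between -0.90 and -0.77 in the omission of any 1 library. The adjusted p in those omissions was 0.0366 in edgeR and 0.00993 in DESeq2 without null replicate 1, and above 0.05 in both tools without any other library.

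CDKN2A was also the dominant INK4 gene, with 89.0% and 89.6% of INK4 counts per kilobase in IMP1-OE and 92.5% and 89.2% in null. The ratio of CDK6 to CDKN2A per kilobase was 2.43 and 1.93 in IMP1-OE against 0.732 and 1.08 in null, without overlap. The corresponding ratio of CCND1 to CDKN2A was 0.468 and 0.386 in IMP1-OE against 0.342 and 0.296 in null, also without overlap. Both ratios contain the difference of CDKN2A, which was without overlap by itself, so they are not separate results. CDK6 was nearly equal in IMP1-OE replicate 2 (1491 CPM) and null replicate 2 (1486 CPM). CDKN2B encodes p15INK4b, a close relative beside CDKN2A on chromosome 9. It had 23 and 34 counts in IMP1-OE and 82 and 47 in null, or 2.19 and 3.23 CPM against 8.02 and 5.14 CPM. It was 2.43-fold lower with a log2 fold change of -1.28 (SE 0.53) and an edgeR p of 0.0534 (adjusted p 0.495). The paralogs share similar sequence and an antisense gene crosses the locus, and a strand-specific count is not stated, so how fragments were divided among them is uncertain.

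The genes around CDKN2A were then examined, a step chosen after its values were seen, with the order of genes taken from RefSeq (GRCh38.p14). Of the 5 tested protein-coding neighbours on each side, 9 of 10 (CDKN2B among them) had a log2 fold change below 0, with a median of -0.54 and a range of -1.6 to 0.08. An unadjusted p under 0.05 was found for 4 of the 10, beside 10.2% of all genes tested: ACER2 (-1.6), MLLT3 (-0.81), CAAP1 (-0.76) and KLHL9 (-0.55). MLLT3, a subunit of the super elongation complex, had 9.18 ± 1.00 CPM in IMP1-OE cells, against 16.1 ± 0.0325 CPM in null cells. MTAP, the methylthioadenosine phosphorylase next to CDKN2A, had a log2 fold change of -0.35, with an edgeR p of 0.108, while FOCAD (-0.06) and PLAA (0.08) were close to 0. The cause of this pattern was not tested. The same count was made around the other members with an unadjusted p under 0.05 and around CDKN2B and CDK6. Around CDK3, the other member called by DESeq2, 7 of 10 neighbours on chromosome 17 were below 0, with a median of -0.41 and 1 at an unadjusted p under 0.05. Around CDKN2B, next to CDKN2A, 8 of 10 were below 0, with a median of -0.44 and 4 at an unadjusted p under 0.05. Most of these neighbours were those of CDKN2A again, and CDKN2A was itself among the 4, so this is not a separate locus. Around CDK6, 6 of 10 were below 0, with a median of -0.15. The medians were above 0 around CDKN1C (0.28), CDKN3 (0.11), CCNB1 (0.11), CCND1 (0.10), CDK8 (0.09) and CDK1 (0.02). No difference between these loci was tested.

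**Figure D4:**
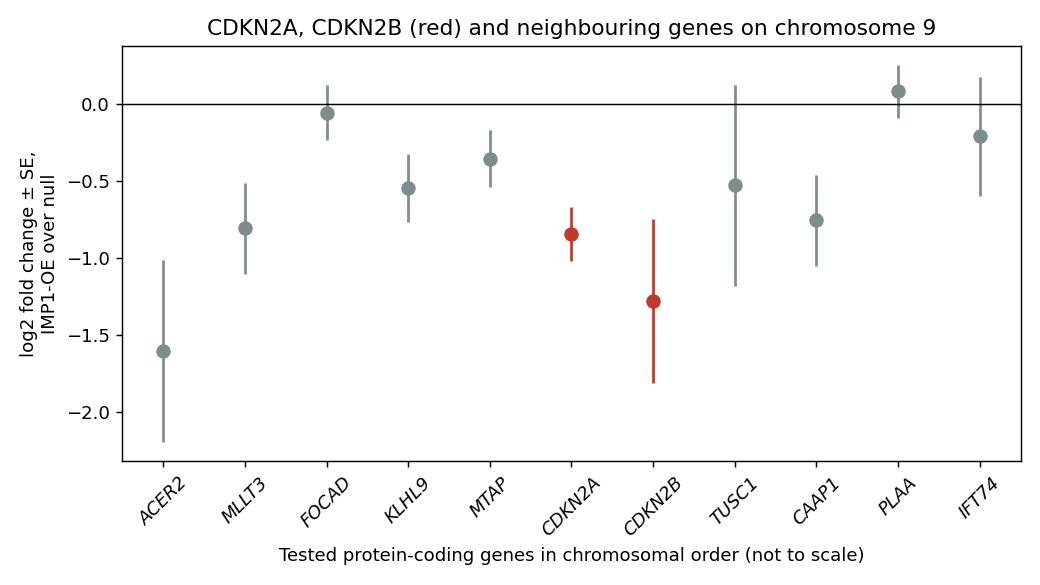
Log2 fold change (IMP1-OE over null) of CDKN2A and CDKN2B (red) and the other genes among the 5 tested protein-coding genes on each side of CDKN2A, in chromosome order, with bars for 1 SE. The values run from -1.6 (ACER2) to 0.08 (PLAA), and 9 of the 10 neighbours lie below 0.

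CDKN1C, the gene of p57KIP2, an imprinted CIP/KIP inhibitor, had 25 and 24 counts in IMP1-OE and 101 and 43 in null. In CPM these were 2.38 and 2.28 in IMP1-OE against 9.88 and 4.71 in null, so all values were low and null replicate 1 stood highest. It was 3.13-fold lower on average (2.33 ± 0.0691 CPM in IMP1-OE cells, against 7.29 ± 3.66 CPM in null cells), with a log2 fold change of -1.64 (SE 0.57) and an edgeR p of 0.0276 (adjusted p 0.456). The log2 fold change was -1.01 when null replicate 1 was left out and -2.08 when null replicate 2 was. In the authors' deposited table it is -0.08.

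CDKN1B, the gene of p27KIP1, had 26.2 and 21.2 CPM in IMP1-OE against 34.5 and 27.9 CPM in null, with a log2 fold change of -0.40 (SE 0.24) and an edgeR adjusted p of 0.609. The groups did not overlap but lay close together, and with 1 library left out the value was between -0.56 and -0.24. Shares of CIP/KIP counts per kilobase also took in CDKN1A, which lies outside the symbol rule and is among the regulators listed below. CDKN1C took 7.94% and 8.22% in IMP1-OE and 20.9% and 11.4% in null. CDKN1B took 69.9% and 61.2% in IMP1-OE and 58.5% and 54.0% in null. CDKN1A took 22.2% and 30.6% in IMP1-OE and 20.6% and 34.7% in null. The level of CDKN1A was 7.80 and 9.98 CPM in IMP1-OE against 11.4 and 16.9 CPM in null, with an edgeR adjusted p of 0.567. The INK4 genes CDKN2D (p19INK4d) and CDKN2C (p18INK4c) overlapped between groups, with 71 and 74 counts of CDKN2D in IMP1-OE and 71 and 121 in null, and 19 and 13 counts of CDKN2C in IMP1-OE and 9 and 23 in null.

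CDKN3 encodes a phosphatase that removes the activating phosphate from CDKs and is itself known as a gene of late cell cycle stages. It had 286 and 212 counts in IMP1-OE and 105 and 103 in null. These were 27.2 and 20.2 CPM in IMP1-OE against 10.3 and 11.3 CPM in null, so both IMP1-OE libraries were well above null and the null libraries were nearly equal. The mean was 23.7 ± 5.00 CPM in IMP1-OE cells, against 10.8 ± 0.708 CPM in null cells, 2.20-fold higher, with a log2 fold change of 1.14 (SE 0.28) and an edgeR p of 0.00726 (adjusted p 0.435). DESeq2 gave an adjusted p of 0.152. In the omission of any 1 library the log2 fold change of CDKN3 was between 0.90 and 1.35.

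The cyclins and kinases of transcription and splicing were all tested. Of these 15 genes, 7 had a log2 fold change above 0 and 8 below, with a median of -0.05, and 1 of them (CDK8, 6.67%) reached an unadjusted p under 0.05, beside 10.2% of all genes. Groups did not overlap for 4 (26.7%), a lower share than the 43.2% of all genes: CDK8 and CDK7 were higher in IMP1-OE, and CDK10 and CCNL2 were lower.

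CDK8, the kinase of the Mediator kinase module and a known oncogene of colorectal cancer, had 382 and 430 counts in IMP1-OE and 152 and 205 in null. These were 36.4 and 40.9 CPM in IMP1-OE against 14.9 and 22.4 CPM in null, with no overlap. The mean was 38.6 ± 3.20 CPM in IMP1-OE cells, against 18.7 ± 5.35 CPM in null cells, 2.07-fold higher, with a log2 fold change of 1.05 (SE 0.27) and an edgeR p of 0.00818 (adjusted p 0.435). DESeq2 gave an adjusted p of 0.127, and 0.0228 without null replicate 2. The edgeR log2 fold change was 0.78 when null replicate 1 was left out and 1.38 when null replicate 2 was.

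The partners of CDK8 did not have the same pattern. CDK19, its paralog, had 14.1 and 17.2 CPM in IMP1-OE against 9.68 and 16.4 CPM in null, with overlapping groups and a log2 fold change of 0.26 (SE 0.36). Per kilobase the ratio of CDK8 to CDK19 was 5.39 and 4.96 in IMP1-OE against 3.21 and 2.85 in null. This ratio contains the difference of CDK8, which was without overlap by itself, so it is not a separate result. CCNC, the gene of cyclin C, which activates both kinases, had 18.7 and 19.1 CPM in IMP1-OE against 28.8 and 10.5 CPM in null, so the null libraries lay on either side and the log2 fold change of -0.06 (SE 0.47) turned to 0.85 without null replicate 1 and to -0.60 without null replicate 2.

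CDK10, a kinase of cyclin M (CCNQ), had 27.4 and 22.6 CPM in IMP1-OE against 31.6 and 42.6 CPM in null, 1.48-fold lower, with a log2 fold change of -0.57 (SE 0.24) and an edgeR adjusted p of 0.505. For CDK10 the value was -0.77 with null replicate 1 left out and -0.34 with null replicate 2 left out. CCNL2, the gene of the splicing cyclin L2, had 44.2 and 38.1 CPM in IMP1-OE against 48.3 and 75.3 CPM in null, 1.5-fold lower, with a log2 fold change of -0.59 (SE 0.26) and an edgeR adjusted p of 0.511. Null replicate 2 set most of the distance for CCNL2, whose log2 fold change was -0.87 (edgeR adjusted p 0.0489) without null replicate 1 and -0.23 without null replicate 2. CDK7, the CDK-activating kinase, had 44.5 and 34.2 CPM in IMP1-OE against 32.7 and 24.2 CPM in null, with an edgeR adjusted p of 0.572. With 1 library left out its value was between 0.27 and 0.70.

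CCNH, the cyclin of CDK7, had the highest level per kilobase of the transcription group, at 41.5 CPM per kilobase in IMP1-OE and 35.7 in null. It had 52.8 and 53.3 CPM in IMP1-OE against 60.7 and 30.8 CPM in null, with a log2 fold change of 0.21 (SE 0.33) and an edgeR adjusted p of 0.863. CDK9 and CCNT1, which form the elongation factor P-TEFb, had log2 fold changes of 0.23 (SE 0.23) and 0.36 (SE 0.37), and their groups overlapped. For CCNT1 the values were 27.98 and 29.2 CPM in IMP1-OE against 30.03 and 14.4 CPM in null, so null replicate 2 alone stood apart. CDK12, CDK13, CCNK, CCNT2, CCNL1 and CCNQ all overlapped between groups, with log2 fold changes between -0.26 (CDK13) and 0.08 (CCNK).

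The remaining 15 members are cyclins and kinases with other or less settled roles, of which 12 were tested. None of the 12 reached an unadjusted p under 0.05 in edgeR, beside 10.2% of all genes, and DESeq2 called none, while 10 had a log2 fold change below 0, and the median was -0.29. CCNI2, a cyclin I relative, had the log2 fold change farthest from 0, at -1.65 (SE 0.89), with 12 and 42 counts in IMP1-OE and 32 and 119 in null. Its replicates differed severalfold in both groups, the groups overlapped, its edgeR adjusted p was 0.576, and it shares its place with SEPTIN8 in RefSeq, so the assignment of its fragments is uncertain. Leaving out 1 library moved CCNI2 to log2 fold changes between -2.79 (without IMP1-OE replicate 2) and -0.29 (without null replicate 2).

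CDK5, a kinase best known from neurons, had the highest level per kilobase of this group when averaged over the 4 libraries, at 57.5 CPM per kilobase in IMP1-OE and 44.3 in null, while in null alone CCNI was above it, at 49.4 CPM per kilobase. It had 76.1 and 52.9 CPM in IMP1-OE against 54.8 and 44.6 CPM in null, with a log2 fold change of 0.38 (SE 0.25) and an edgeR adjusted p of 0.642, and the value was 0.092 without IMP1-OE replicate 1 and 0.63 without IMP1-OE replicate 2. CCNG1, a p53 target that encodes cyclin G1, had 45.3 and 47.8 CPM in IMP1-OE against 30.5 and 41.3 CPM in null, with an adjusted p of 0.607, and was the 1 gene of this group that was higher in IMP1-OE without overlap. The CCNG1 value of 0.38 became 0.17 without null replicate 1 and 0.61 without null replicate 2. CDK20, with 40 and 21 counts in IMP1-OE and 41 and 61 in null, and CCNO, a cyclin of multiciliated cells, with 38 and 48 counts in IMP1-OE and 48 and 57 in null, were lower without overlap and had edgeR adjusted p-values of 0.657 and 0.808.

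CCNI, an abundant cyclin of this group, was nearly level, at 125 and 137 CPM in IMP1-OE against 125 and 148 CPM in null. CCNG2, CCNJ, CCNY, CDK16, CDK17 and CDK18 overlapped between groups, with log2 fold changes between -0.53 (CCNJ) and -0.08 (CDK16). Of the 3 untested genes, CDK15 was at 0 in every library, CDK14 had 1 or 2 counts per library, and CCNP had 37 and 6 counts in IMP1-OE and 8 and 4 in null.

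**Figure D5:**
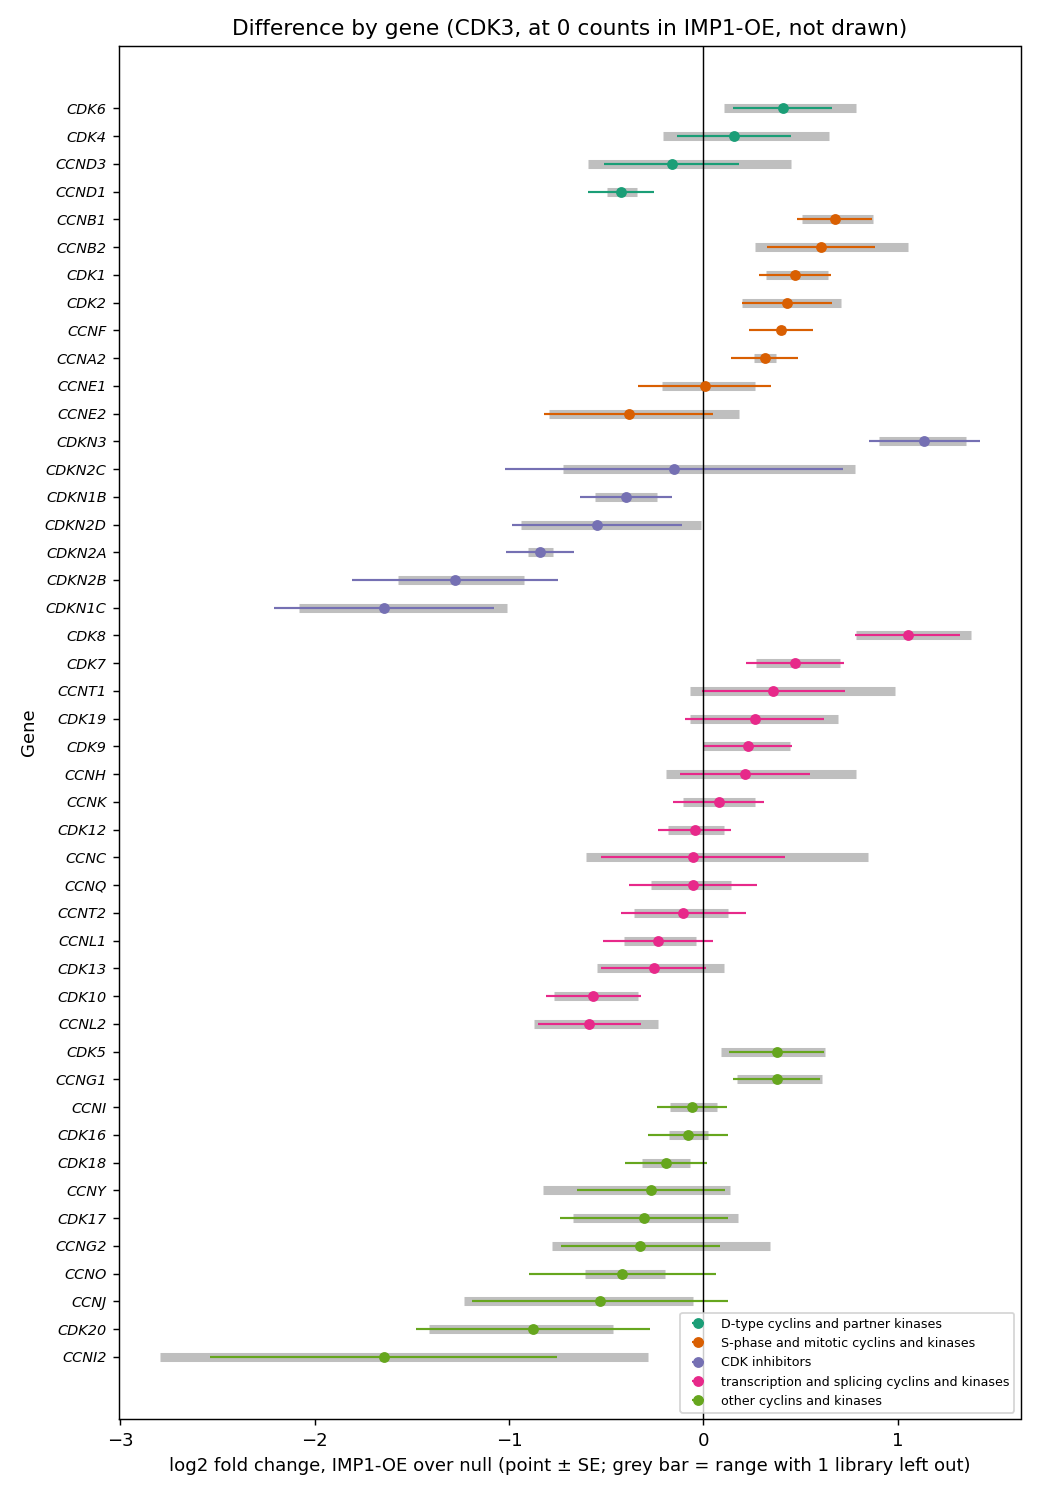
Log2 fold change (IMP1-OE over null) of the tested members, coloured by role group, with thin bars for 1 SE and grey bars for the range when 1 library is left out. CDK3, with no counts in IMP1-OE, is left out because its fitted value is no estimate of size, CDKN3 (1.14) and CDK8 (1.05) lie highest, and CCNI2 (-1.65) and CDKN1C (-1.64) lie lowest.

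Regulators of cyclin-CDK activity outside the symbol rule were taken from a list of 50 genes, all of them tested (retinoblastoma family, E2F and DREAM components, CDC25 phosphatases, ubiquitin ligase subunits and CDK-binding proteins). Of these, 32 had a log2 fold change above 0, beside 48.1% of all genes tested, and 18 had one below 0. The median was 0.10, beside -0.02 over all genes tested, and edgeR called none, beside 0% of all genes. At an unadjusted p under 0.05 there were 9 (18.0%), beside 10.2% of all genes tested. Of the 9, 6 were higher, beside 4.34% of all genes, and 3 lower, beside 5.84%. DESeq2 called 1 of the 50, CDC20, beside 1.28% of all genes to which it gave an adjusted p.

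CDC20, the activator of the anaphase-promoting complex that triggers the destruction of cyclin B, had 248 and 265 CPM in IMP1-OE against 162 and 140.3 CPM in null. Both IMP1-OE libraries were far above both null libraries, 1.70-fold on average (256 ± 12.2 CPM in IMP1-OE cells, against 151 ± 15.2 CPM in null cells). Its log2 fold change was 0.76 (SE 0.17) at an edgeR p of 0.00458 (adjusted p 0.433), and the authors' deposited table gives an adjusted p of 0.0300. MYBL2, the MYB protein that switches the DREAM complex to activation, had 90.1 and 108 CPM in IMP1-OE against 68.8 and 57.8 CPM in null, 1.56-fold higher. TFDP1, the partner of E2F proteins, had 99.3 and 117 CPM in IMP1-OE against 58.7 and 76.4 CPM in null, 1.6-fold higher. CKS2, a small CDK-binding subunit, had 121 and 106 CPM in IMP1-OE against 70.2 and 85.2 CPM in null, 1.46-fold higher. CABLES2, a CDK-binding protein, had 11.99 and 13.1 CPM in IMP1-OE against 5.09 and 7.22 CPM in null, 2.04-fold higher. Groups did not overlap for any of these 5 genes, and the edgeR adjusted p was 0.433 to 0.46 for all 5. They were named for the smallest p of the list, so the absence of overlap is not a separate result. Over the whole list the groups did not overlap for 26 of 50 genes (52%), beside 43.2% of all genes tested. FOXM1, a transcription factor of mitotic genes, was the other gene higher at an unadjusted p under 0.05, and LIN37, CDK5RAP3 and CABLES1 were the 3 lower.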

How the data were processed

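RNA of 4 HT-29 libraries (2 IMP1-OE, 2 null) was measured. Per the labels' protocols, RNA was fragmented at random, pieces of 18 to 50 nt were selected and joined to linkers that hold random-base identifiers, ribosomal RNA was removed after pooling, and 15 PCR cycles followed. The submitters' processing notes name kallisto 0.46.2, HISAT2 2.1.0, fastp 0.21, cutadapt 3.5 and DESeq, with no roles. Whether the identifiers were used, and which build and annotation, is not stated in the sources used here. The authors deposited estimated counts for 20322 targets, all whole numbers, and a table of log2 fold changes, p-values and adjusted p-values, per the file headers. Its log2 values are smaller in size than DESeq2's for many genes, and positive ones mean higher in IMP1-OE. The count table holds 2 further libraries without a label, not analysed here.

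Genes were tested with edgeR 4.0.16 in R 4.3.3 (TMM scaling, default low-count filter, quasi-likelihood F test with default settings, no covariate), with Benjamini-Hochberg adjustment over 12113 genes and a threshold of 0.05. CPM values were scaled by TMM, SE is the log2 fold change over the root of F, and levels per kilobase used the target's length. Alternatives were voom in limma 3.58.1, DESeq2 1.42.0, a replicate block, different scalings or low-count filters, and the omission of ARSI or of each library. A further edgeR setting, DESeq2 without each library and the sum of CDK3 and TEN1-CDK3 were added after the data were seen. Only the edgeR quasi-likelihood step was run on simulated counts with known changes. The smallest p that 2 against 2 libraries allow in an exact two-sided permutation test is 0.333. A chi-square test between replicates gave 19.2 per degree of freedom in IMP1-OE and 55.3 in null, so no libraries were merged. Floors and intervals cover counting error only, since PCR copies are not independent molecules.

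Named in full were CCND1, the 12 members with the smallest p, those called by any tool, the most abundant member per kilobase and the one with the largest fold change (at least 20 mean counts) of each role group, and the 5 regulators with the smallest p. Members and lists were chosen with earlier results of these data known. Promoter windows were read from a RefSeq table (GRCh38.p14) by symbol. Estimated counts of near-identical or overlapping targets are uncertain.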

Additional observations from a re-analysis of the deposited data

How the results depend on the processing

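The number of genes called depended on the test: 0 with the edgeR quasi-likelihood test, 22 without a low-count filter, 164 with DESeq2, 155 with the edgeR likelihood ratio test, and 1 each with limma-voom and with edgeR's newer setting (legacy = FALSE, added after the data were seen). With 1 library left out it was 0 to 783 (783 without null replicate 1, 48 without null replicate 2), and the genes at an unadjusted p under 0.05 were 366 to 3015, against 1233 with all libraries. Members called were 0 in edgeR, 2 in DESeq2, 1 (CDK3) in the likelihood ratio test and 0 to 4 with 1 library left out. Members called by DESeq2 were 0 to 6 with 1 library left out, and members at an unadjusted p under 0.05 were 2 to 21. Regulators called were 1 in DESeq2 and 0 to 2 with 1 library left out, those at an unadjusted p under 0.05 were 0 to 13, and their median log2 fold change was 0.088 to 0.16. Same-numbered libraries deviated together only weakly (correlation 0.12), so the numbers were not taken as pairs. With the replicate block 15 genes were called and no member. The settings counted next include edgeR with legacy = TRUE, which repeated the main fit, so its values could not differ. Of 39 named genes, 4 of 430 values under other scalings, filters and tests had the opposite direction. These were CDK3 summed with its readthrough (0.41), CDKN2C with voom (0.039), and CCNC with voom (0.089) and with the block (0.11). With 1 library left out the direction turned in 14 of 156 values, over 11 genes. Their log2 fold changes spanned -0.19 to 0.79 for CCNH, -0.21 to 0.65 for CDK4, -0.59 to 0.45 for CCND3, -0.21 to 0.27 for CCNE1, -0.79 to 0.18 for CCNE2, -0.72 to 0.78 for CDKN2C, -0.069 to 0.69 for CDK19, -0.60 to 0.85 for CCNC, -0.071 to 0.98 for CCNT1, -0.00070 to 0.44 for CDK9 and -0.17 to 0.070 for CCNI. The cause was not tested.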

Other observations

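Other genes of dividing cells, named after their values were seen, did not all have the order of the mitotic members. MKI67, the gene of the Ki-67 antigen, had 256 ± 10.4 CPM in IMP1-OE cells, against 326 ± 46.7 CPM in null cells, with both IMP1-OE libraries below both null libraries, a log2 fold change of -0.35 and an edgeR adjusted p of 0.553. TOP2A, a topoisomerase of late S phase to mitosis, had 565 ± 30.9 CPM in IMP1-OE cells, against 422 ± 24.8 CPM in null cells, with a log2 fold change of 0.42 and an edgeR adjusted p of 0.475. PCNA, the sliding clamp of DNA replication, had 307 ± 9.98 CPM in IMP1-OE cells, against 296 ± 26.2 CPM in null cells, with overlapping groups and a log2 fold change of 0.05.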
